A study of Mus musculus with 4 samples.

Results

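Cadherins and catenins were followed in mouse embryonic stem (ES) cells that lacked the transcription factor Klf5. The genes are the adhesion receptors Cdh1, Cdh2, Cdh3, Cdh5, Cdh11 and Cdh13 and the cytoplasmic linkers Ctnna1, Ctnnb1, Ctnnd1 and Jup. Every row whose platform gene symbol was one of these 10 names was taken, which gave 24 probe sets out of 45101 on the array. The study compared 2 Klf5 knockout (KO) clones with 2 wild-type (WT) clones, each hybridised once to an Affymetrix GeneChip, which reads a transcript through a set of short probes. The culture medium of all 4 clones held fetal bovine serum and LIF, which sustains self-renewal. Each array is a single clone, and the labels name neither the deleted part of Klf5, the strain nor any feeder cells. The stated aim was to find genes lower in the KO cells. The 10 genes were chosen by name, with the KO minus WT log2 differences of these 4 arrays known, among them the large one of Cdh11 and that of Cdh2. Their values in this comparison are therefore a description, given with an error and without p-values.

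Classical cadherins span the membrane and bind the same cadherin on the neighbouring cell in the presence of calcium. Inside the cell their tail holds p120-catenin (Ctnnd1) and either beta-catenin (Ctnnb1) or plakoglobin (Jup), and these last join alpha-catenin (Ctnna1), which reaches the actin cytoskeleton. Beta-catenin that is free of the membrane also acts in the nucleus, with TCF and LEF factors, as the effector of canonical Wnt signalling. E-cadherin (Cdh1) is the main cadherin of mouse ES cells and of epithelia, while N-cadherin (Cdh2) and cadherin 11 (Cdh11) are typical of mesenchymal and neural cells.

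Values are intensities after quantile normalization, which gives the 4 arrays one distribution. Differences are KO minus WT in log2(intensity + 16), with the moderated standard error (SE) of a linear model fitted to all probe sets (limma, n = 2 arrays per group) and a 95% confidence interval. The added 16 understates the change of dim probe sets. The labels call the arrays separate clones. The errors combine the spread between the 2 clones of each group with a prior variance estimated from all kept probe sets. The prior had 6.87 degrees of freedom and the residual had 2, so the prior carried more weight. No clone was hybridised again, so differences between clones, cultures and hybridisations cannot be told apart. Probe sets whose mean lay below the 40th percentile, at an intensity of 13.05, were not tested. Of the 24 probe sets, 18 were kept, and they covered 9 of the 10 genes. All probe sets of Cdh5 were left out.

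The brightest Klf5 probe set read 34.8 and 49.9 in the KO clones, against 2398 and 1782 in the WT clones. Which part of Klf5 was deleted, and so what its probe sets can check, is not in the labels; another (1451739_at) read 82.6 and 61.0 in KO clones and 102 and 88.6 in WT clones. Before normalization, the arrays' trimmed mean intensity was 138 and 150.5 in the KO arrays and 227 and 139 in the WT arrays, with WT clone 1 brightest. The correlation across probe sets was 0.986 within each genotype and between 0.972 and 0.979 across genotypes. Of 15 ES cell markers, 0 rose, beside 2.94% of all kept genes, and 0 fell, beside 1.34% (limma, adjusted p under 0.05). Both KO arrays lay below both WT arrays for 7 of the 15, beside 29.7% of all kept genes. They lay above for 2, beside 25.9%. The summed intensity of the 15 was 40271 and 42015 in KO clones and 43060 and 44035 in WT clones. The ends of that list were Dppa3 at 0.96 ± 0.29 and Tfcp2l1 at -0.82 ± 0.21 (log2 difference ± SE). Pou5f1 (Oct4) read 2327 and 2566 in KO clones and 2887 and 3141 in WT clones.

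**Figure D1:**
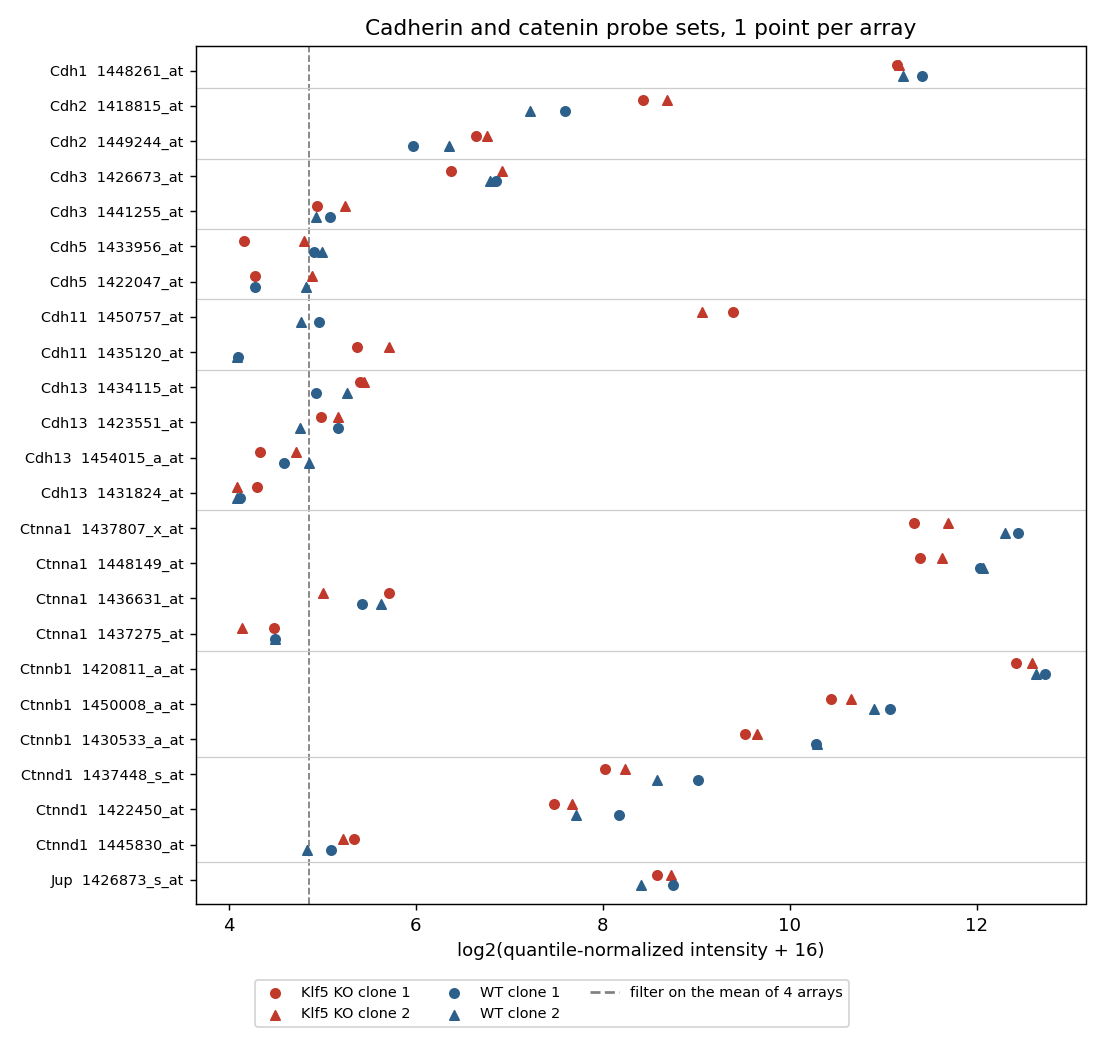
Intensity of all 24 cadherin and catenin probe sets on each of the 4 arrays (horizontal axis, log2 of the quantile-normalized intensity + 16; 1 point per array, red for Klf5 KO and blue for WT clones, circles for clone 1 and triangles for clone 2). The dashed line is the filter on the mean of the 4 arrays; the KO points of Cdh11 lie far to the right of the WT points, those of Cdh1 and Jup lie close to them.

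Among the cadherins, Cdh11 and Cdh2 were higher in KO clones, and the intervals of the differences of Cdh1 and Cdh3 held 0. Of the 8 kept cadherin probe sets, 2 rose, 0 fell and 6 did not pass the threshold. Over all 18 kept probe sets of cadherins and catenins, 2 (11.1%) rose, beside 2.44% of all 27022 kept probe sets, and 0 fell, beside 1.25%, so that 2 passed in either direction, beside 3.69%. With 1 probe set per gene, 2 of the 9 genes kept passed, beside 4.28% of all 13023 genes kept. As the genes were chosen with this comparison known, nothing is read from that share.

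Cdh11, a cadherin of mesenchymal cells and bone-forming cells, had the widest separation. Its brighter probe set (1450757_at) read 656 and 519 in KO clones 1 and 2, against 15.3 and 11.3 in WT clones 1 and 2. Both KO arrays lay far above both WT arrays, and the WT values were near the filter intensity. The log2 difference was 4.36 ± 0.20 (SE, n = 2 arrays per group; 95% interval 3.91 to 4.81), or 20.5-fold on this scale. KO clone 1 stood 4.52 and KO clone 2 stood 4.19 above the WT mean on the log2 scale. The other Cdh11 probe set (1435120_at) read 25.5 and 36.5 in KO clones and 1.17 and 0.97 in WT clones, with groups that did not overlap, and it was left out by the filter on mean intensity. Its log2 difference was 1.45, without a test. Over the 12 alternative settings, the difference of the brighter probe set ran from 3.07 with 64 added before the log to 5.37 with 1 added. These reruns used the arrays on which Cdh11 was chosen, so they describe the processing only. The summed intensity of 24 fibroblast or feeder cell markers was also higher in the KO arrays, at 24592 and 25935 in KO clones and 10509 and 7598 in WT clones. In bulk RNA, more cells of a type and more RNA per cell cannot be told apart, and the part of other cells in the Cdh11 and Cdh2 values was not tested.

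Cdh2 (N-cadherin) lies on chromosome 18 and was read by a pair of probe sets. The brighter (1418815_at) read 328 and 396 in KO clones, against 178 and 133 in WT clones, with no overlap. The log2 difference was 1.15 ± 0.21 (95% interval 0.68 to 1.62), or 2.22-fold. The dimmer probe set (1449244_at) read 83.8 and 92.7 in KO clones and 46.5 and 66.0 in WT clones, also without overlap. It had 0.54 ± 0.20 (95% interval 0.085 to 0.997) and did not pass. The brighter probe set no longer passed with 1 added before the log, without a filter or without normalization. It also did not pass without WT clone 2, without KO clone 1 or without KO clone 2, where its log2 difference was 0.96, 1.29 and 1.03.

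Cdh1 (E-cadherin), the cadherin of the ES cell colony, had a single probe set (1448261_at). It read 2242 and 2279 in KO clones and 2715 and 2351 in WT clones. Both KO values lay below both WT values, but by less than the gap between the WT clones. The log2 difference was -0.16 ± 0.18 (95% interval -0.57 to 0.25), an interval that holds both a lower and a slightly higher level. In the intensities as deposited, Cdh1 read 1957 and 2065 in KO clones and 3585 and 2085 in WT clones, and the difference there was -0.44. It was negative under all 12 alternatives, from -0.44 to -0.056.

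Cdh3 (P-cadherin), which with Cdh1 is found in epithelia and placenta, showed no separation. Its brighter probe set (1426673_at) read 67.3 and 106 in KO clones and 100.4 and 94.6 in WT clones, so that the KO clones lay on either side of the WT clones. The log2 difference was -0.17 ± 0.22 (95% interval -0.67 to 0.33), and it turned to 0.10 without KO clone 1. The dimmer one (1441255_at) read 14.8 and 21.9 in KO clones and 17.8 and 14.5 in WT clones.

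Cdh13 and Cdh5 were dim in all 4 clones. Cdh13 (T-cadherin) is an unusual member of the family that is held to the membrane by a lipid anchor and has no catenin-binding tail. Its brightest probe set (1434115_at) read 26.2 and 27.5 in KO clones and 14.5 and 22.5 in WT clones, without overlap, and the log2 difference was 0.32 ± 0.19 (95% interval -0.12 to 0.76). The next (1423551_at) read 15.6 and 19.9 in KO clones and 20.0 and 11.1 in WT clones, with overlap. The remaining Cdh13 probe sets (1454015_a_at and 1431824_at) read 13.0 or less on every array and were not tested.

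Cdh5 (VE-cadherin) forms the junctions of endothelial cells. Its probe sets read 1.94 and 11.9 in KO clones against 14.0 and 15.9 in WT clones (1433956_at), and 3.41 and 13.8 in KO clones against 3.51 and 12.4 in WT clones (1422047_at). Only the first separated the genotypes, and its log2 difference was -0.47, without a test. Of 13 kept endothelial marker genes, 0 rose, beside 2.94% of all kept genes, and 2 fell, beside 1.34%. Vwf and Esam fell by 1.12 ± 0.25 and 0.79 ± 0.18 on the log2 scale (limma, adjusted p = 0.044 and 0.049). The mean of Vwf in KO clones was under the filter, so it was kept through its WT values. Both KO arrays lay below both WT arrays for 6 of the 13, beside 29.7% of all kept genes. They lay above for 1, Flt1 at 0.72 ± 0.19, beside 25.9%. The sum over these markers was 706 and 706 in KO clones and 831 and 825 in WT clones. Both calls were lost in leave-outs of 1 array: Esam failed in all 4, and Vwf passed only without KO clone 2.

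Position was shared among the cadherins. Of the 6 genes, 5 lie on chromosome 8 in the RefSeq annotation (GRCm38.p6; the build of the array's design was not used here), and Cdh2 lies on chromosome 18. Cdh11 and Cdh5 are next to each other among protein-coding genes, as are Cdh3 and Cdh1. Cdh11 rose 20.5-fold while its neighbour Cdh5 stayed under the filter, and Cdh8, on the other side of Cdh11, was not tested. Among the neighbours of the 10 genes that are not themselves cadherins or catenins of this set, P3h4, next to Jup, rose by 0.90 ± 0.18 (limma, adjusted p = 0.030), and none of the others tested passed; it was named after its value was seen.

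Of 10 kept catenin probe sets, 0 rose and 0 fell past the threshold. Both KO arrays lay below both WT arrays for 7 of these 10, all of them in Ctnna1, Ctnnb1 or Ctnnd1, beside 28.4% of all kept probe sets. Both KO arrays lay above both WT arrays for 1, a dim probe set of Ctnnd1, beside 23.9% of all kept probe sets. Probe sets of one gene read the same RNA, so these counts are not independent, and nothing is read from the shares. With 1 probe set per gene, Cdh1, Ctnna1, Ctnnb1 and Ctnnd1, or 4 of the 9 genes kept, had both KO arrays below both WT arrays, beside 29.7% of all genes. The log2 differences of the 7 ran from -0.86 to -0.18. In all 7, KO clone 1 read lower than KO clone 2, which was so for 53.3% of all kept probe sets.

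**Figure D2:**
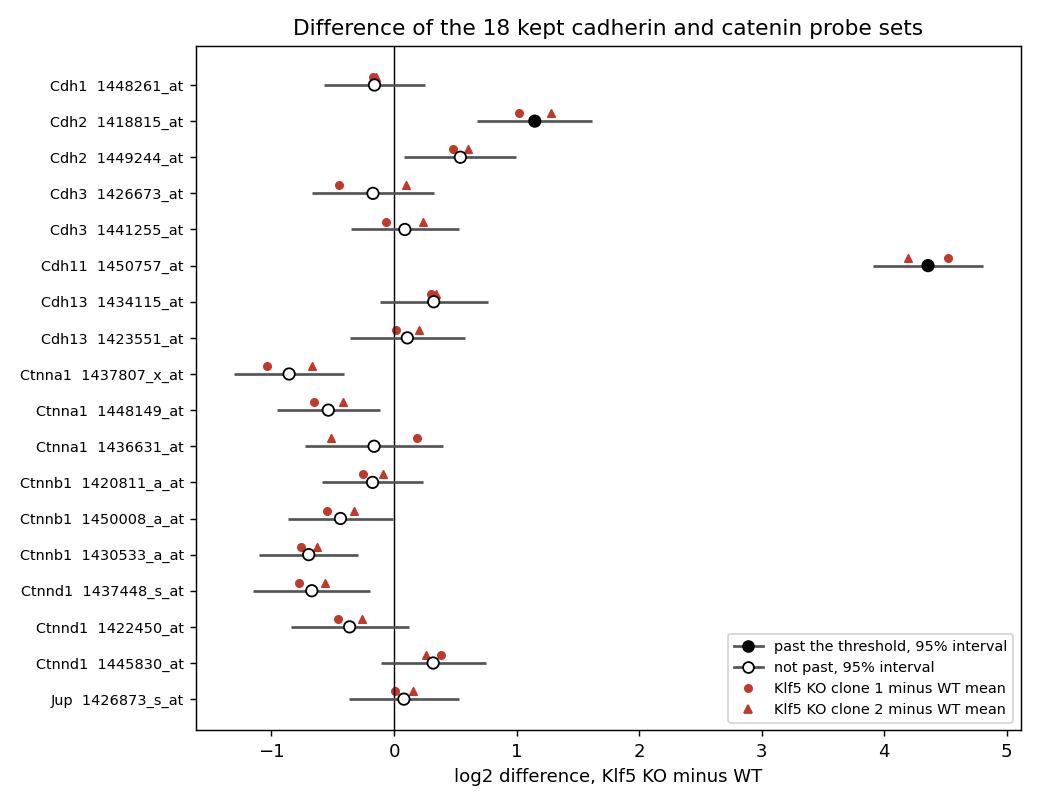
Log2 difference, Klf5 KO minus WT, of the 18 kept cadherin and catenin probe sets (circles, filled where past the threshold of the fit over all probe sets; bars, 95% confidence interval). Small red symbols are each KO clone minus the WT mean; Cdh11 and the brighter Cdh2 probe set are the only filled circles, and 7 probe sets of Ctnna1, Ctnnb1 and Ctnnd1 have both KO clones to the left of 0.

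Ctnna1 (alpha-catenin), the link to actin, lies on chromosome 18. Its probe set 1448149_at read 2672 and 3151 in KO clones and 4174 and 4260 in WT clones. The KO values were lower without overlap, and the log2 difference was -0.54 ± 0.18 (95% interval -0.96 to -0.12). The probe set 1437807_x_at, whose suffix marks probes that can match other sequences too, read 2556 and 3302 in KO clones and 5542 and 5017 in WT clones, with a difference of -0.86 ± 0.20 (95% interval -1.31 to -0.40). Neither passed. A dim one (1436631_at) read 36.6 and 16.3 in KO clones and 27.0 and 33.5 in WT clones, with overlap, and the dimmest (1437275_at) read 6.53 or less on every array and was not tested.

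Ctnnb1 (beta-catenin), the adhesion linker and Wnt effector, had 3 probe sets that all read lower in both KO clones. The brightest (1420811_a_at) read 5479 and 6134 in KO clones and 6777 and 6327 in WT clones, a difference of -0.18 ± 0.18 (95% interval -0.59 to 0.24). The next (1450008_a_at) read 1369 and 1597 in KO clones and 2133 and 1889 in WT clones, a difference of -0.44 ± 0.19 (95% interval -0.86 to -0.011). The probe set 1430533_a_at read 720 and 788 in KO clones and 1228 and 1233 in WT clones, and had -0.70 ± 0.18 (95% interval -1.10 to -0.29). All 3 intervals overlap, so unequal amounts are not shown. The suffix _a_at marks probes shared by transcripts of one gene. The part of the transcript that each covers was not used here.

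Ctnnd1 (p120-catenin), which binds the cadherin tail near the membrane and slows its removal, had lower values in its brighter probe sets. The probe set 1437448_s_at read 244 and 285 in KO clones and 503 and 366 in WT clones, with a difference of -0.67 ± 0.21 (95% interval -1.15 to -0.19). It was -0.44 without WT clone 1 and -0.89 without WT clone 2. The probe set 1422450_at read 162 and 188 in KO clones and 272 and 193 in WT clones, where KO clone 2 was barely under WT clone 2, and had -0.36 ± 0.21 (95% interval -0.84 to 0.12). The dim 1445830_at went the other way, at 24.6 and 21.4 in KO clones and 18.1 and 12.6 in WT clones, with 0.32 ± 0.19.

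Jup (plakoglobin), which can take the place of beta-catenin on cadherin tails and also serves desmosomes, showed no separation on its probe set 1426873_s_at. It read 368 and 409 in KO clones and 414 and 323 in WT clones, with both KO values between the WT values. The log2 difference was 0.080 ± 0.20 (95% interval -0.37 to 0.53). Its sign turned without normalization (-0.24), with median centring (-0.20) and without WT clone 2 (-0.092).

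How many catenin probe sets passed depended on the processing. Lower past the threshold were 4 with 64 added before the log, 3 after centring on the median, 3 with a variance prior that follows intensity and 2 with a filter at the 60th percentile. Across these settings the ones past it were the probe sets 1437807_x_at and 1448149_at of Ctnna1, 1430533_a_at of Ctnnb1 and 1437448_s_at of Ctnnd1. With any 1 array left out the count was 0. The log2 difference of the 3′ and 5′ beta-actin control probe sets, which grows as RNA degrades, was 0.75 and 0.52 in KO clones and 0.48 and 0.44 in WT clones, and its part in the catenin values was not tested. The same difference for Gapdh was -0.33 and -0.29 in KO clones and -0.32 and -0.32 in WT clones.

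**Figure D3:**
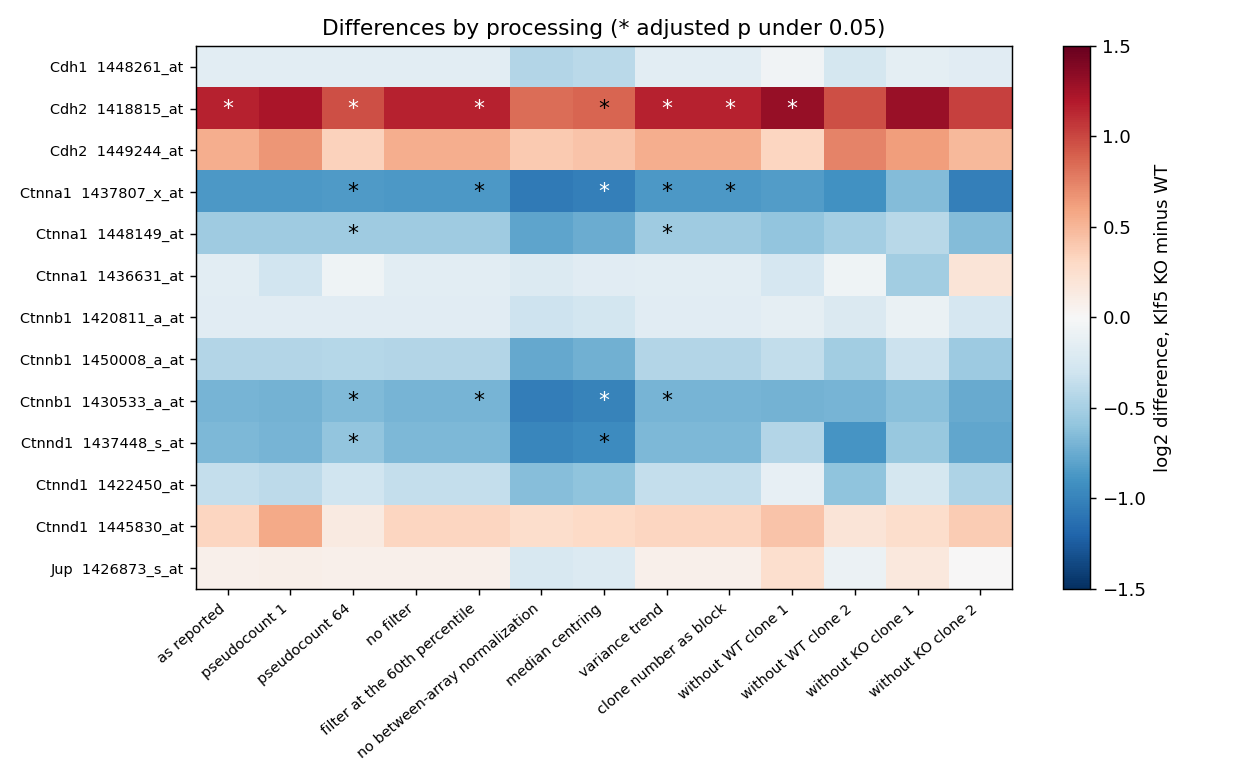
Log2 difference, Klf5 KO minus WT, of the kept probe sets of Cdh1, Cdh2 and the catenins (rows) under the reported setting and 12 alternatives (columns), red for higher and blue for lower in KO; an asterisk marks an adjusted p under 0.05 in the fit over all probe sets. Cdh2 1418815_at is red in every column, and Ctnnb1 1430533_a_at is blue in every column; without normalization and with median centring the median of all genes also moves, to -0.23 and -0.19.

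Promoters were taken from the RefSeq promoter table (GRCm38.p6; 250 bases before to 50 after each start), which matched 3 of the 10 genes. The 3 are shown because the table held them, and they were not picked by their values in KO clones. The 250 bases before the start are printed 5′ to 3′ on the gene's strand, and capitals mark CCNCNCCC or its reverse complement GGGNGNGG, letters that fit the CACCC-type sites of Kruppel-like factors.
Ctnnb1, chr9:120933150-120933399, plus strand: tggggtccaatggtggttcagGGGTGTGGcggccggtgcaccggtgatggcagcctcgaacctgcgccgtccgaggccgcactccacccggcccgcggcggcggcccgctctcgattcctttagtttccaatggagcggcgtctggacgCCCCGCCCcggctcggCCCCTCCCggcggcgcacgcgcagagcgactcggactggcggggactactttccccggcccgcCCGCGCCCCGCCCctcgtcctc
Ctnnd1, chr2:84658978-84659227, minus strand: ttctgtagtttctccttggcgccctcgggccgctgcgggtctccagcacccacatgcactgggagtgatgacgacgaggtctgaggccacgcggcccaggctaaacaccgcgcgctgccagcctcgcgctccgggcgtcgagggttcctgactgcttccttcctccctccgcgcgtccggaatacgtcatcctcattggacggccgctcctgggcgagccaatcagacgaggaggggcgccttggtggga
Jup, chr11:100397791-100398040, minus strand: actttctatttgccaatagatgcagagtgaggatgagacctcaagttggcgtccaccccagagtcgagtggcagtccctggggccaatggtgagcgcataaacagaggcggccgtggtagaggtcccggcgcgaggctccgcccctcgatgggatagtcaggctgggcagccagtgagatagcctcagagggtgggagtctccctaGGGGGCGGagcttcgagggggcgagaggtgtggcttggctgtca
Over the 300 bases of the table, this Ctnnb1 promoter held 5 matches, that of Ctnnd1 held 0 and that of Jup held 1, and 49.5% of all 32851 promoters held at least 1. The other listed start of Ctnnb1 held 2 matches and the other start of Ctnnd1 held 1. The Ctnnb1 promoter also held 3 GC boxes (CCGCCC or GGGCGG), all 3 overlapping a marked match, Jup held 2 and Ctnnd1 held 0, beside 35.7% of all promoters with at least 1. The E-box CACCTG or CAGGTG, which Snail and Zeb factors bind, was in none of these windows, against 20.2% of all promoters. GC content was 75.3% in this Ctnnb1 window, 67.7% in that of Ctnnd1 and 60.7% in that of Jup, with a median of 52.7% over all promoters. Matching letters are a description and show no binding.

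Other cadherins, mostly protocadherins and the large Fat and Celsr cadherins, moved in both directions. The gene lists were written with earlier results of these data known, so their counts and p-values are a description. Of 35 listed, 15 were kept, of which 2 rose, 1 fell and 12 did not pass, beside 2.94% of all 13023 kept genes that rose and 1.34% that fell (1 probe set per gene). Their median log2 difference was 0.014, and that of all genes was -0.024. Pcdh19, a protocadherin best known from the brain, read 122 and 127 in KO clones and 24.7 and 29.1 in WT clones and rose by 1.71 ± 0.18 (limma, adjusted p = 0.0015), a call kept under all alternatives. Pcdh7 read 38.8 and 49.4 in KO clones and 13.4 and 8.16 in WT clones and rose by 1.17 ± 0.20 (adjusted p = 0.016), a call lost in most leave-outs of 1 array. The mean of Pcdh7 in WT clones was under the filter, so it was kept through its KO values. Celsr1, a cadherin of planar cell polarity, read 33.0 and 38.0 in KO clones and 92.8 and 70.6 in WT clones and fell by 0.92 ± 0.20 (adjusted p = 0.038), a call lost with any array left out. Here and in the lists that follow, Fat1, Axin2, Adam10 and Epcam were added after their values were seen; Fat1 had -0.30 ± 0.19.

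Relatives of the catenins and junction partners gave 1 call each, while 2.94% of all kept genes rose and 1.34% fell. Of 9 kept relatives, 1 rose, 0 fell and 8 did not pass, with a median of -0.081. Pkp1 (plakophilin 1), a p120 relative of desmosomes, read 23.7 and 49.4 in KO clones and 2.63 and 4.0 in WT clones and rose by 1.40 ± 0.25 (limma, adjusted p = 0.019), both WT values being under the filter intensity. It gave no test when either KO clone was left out. Of 35 kept junction partners, such as nectins, afadin, vinculin and p120-binding or tyrosine phosphatase genes, 1 rose, 0 fell and 34 did not pass, with a median of -0.14. Limd1, a LIM protein recruited to adherens junctions, rose by 1.21 ± 0.21 (adjusted p = 0.019), at 131 and 144 in KO clones against 62.9 and 40.1 in WT clones. Its other probe set had -0.26 (adjusted p = 0.49), and the call held only without WT clone 1 among the leave-outs.

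The genes that destroy beta-catenin and those that act with it in the nucleus gave 1 call between them. Over all kept genes, 2.94% rose and 1.34% fell. Of 14 kept turnover genes, 0 rose, 1 fell and 13 did not pass, with a median of -0.32. Both KO arrays lay below both WT arrays for 7 of the 14, beside 29.7% of all kept genes. They lay above for 0, beside 25.9%. Amer1, a scaffold that binds beta-catenin and Apc, read 48.6 and 36.7 in KO clones and 87.3 and 93.8 in WT clones and fell by 0.87 ± 0.19 (limma, adjusted p = 0.043), a call lost with any array left out. Of 12 kept TCF, LEF and cofactor genes, 0 rose and 0 fell. Both KO arrays lay below both WT arrays for 5 of these and above for 0. The ends of that list were Tcf7l1 (Tcf3 of ES cell biology) at 0.41 ± 0.25 and the co-repressor Tle3 at -0.63 ± 0.23.

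Among 12 kept target genes of beta-catenin, 1 rose, 1 fell and 10 did not pass, with a median of -0.13. Over all kept genes, 2.94% rose and 1.34% fell. Fst (follistatin), an activin inhibitor, read 285 and 234 in KO clones and 38.1 and 28.4 in WT clones and rose by 2.48 ± 0.20 (limma, adjusted p = 0.00034), also under all alternatives. Notum, a secreted enzyme that inactivates Wnt proteins, read 109 and 94.1 in KO clones and 243 and 194 in WT clones and fell by 0.99 ± 0.20 (adjusted p = 0.028), a call lost with any array left out. Axin2, the target most widely used as a readout, had -0.12 ± 0.18.

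Transcription factors and cofactors that regulate cadherin genes held calls in both directions. Of 23 kept, 5 rose, beside 2.94% of all kept genes, 1 fell, beside 1.34%, and 17 did not pass. The median was -0.026. Prrx1, a homeobox factor of mesenchyme, read 188 and 178 in KO clones and 7.14 and 3.49 in WT clones and rose by 3.23 ± 0.19 (limma, adjusted p = 7.9e-05); both WT values were under the filter intensity, so it was kept through its KO values. Twist2, a basic helix-loop-helix factor of mesenchyme, read 109 and 109 in KO clones and 15.5 and 19.4 in WT clones and rose by 1.91 ± 0.18 (adjusted p = 0.00089). Both passed under all alternatives. Named after their values were seen, Foxc2, Prrx2 and Snai2 (Slug, a repressor of Cdh1) rose by 1.60, 1.38 and 0.83 (adjusted p = 0.0068, 0.0082 and 0.041). Foxc2 read 47.5 and 26.2 in KO clones and 1.51 and 0.66 in WT clones and was likewise kept through its KO values. Foxa1, an endoderm and epithelial factor, read 15.0 and 6.17 in KO clones and 34.3 and 43.7 in WT clones and fell by 1.06 ± 0.22 (adjusted p = 0.034), a call lost with any array left out. The mean of Foxa1 in KO clones was under the filter, so it was kept through its WT values.

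Other repressors of Cdh1 did not pass and are given, after their values were seen, for comparison. Zeb2 had 0.78 (limma, adjusted p = 0.089), Zeb1 0.53 (adjusted p = 0.18), Twist1 0.36 (adjusted p = 0.54) and Snai1 0.053 (adjusted p = 0.90). Zeb2 was dim, at 23.7 and 29.7 in KO clones and 13.4 and 4.86 in WT clones. Its mean in WT clones was under the filter, so Zeb2 was kept through its KO values. On the other side of 0 were Snai3 at -0.20 and Tcf3 (E12/E47) at -0.23, and the histone demethylase Kdm1a, a cofactor of Snail repression, at -0.42. Grhl2, an activator of Cdh1 in epithelia, had -0.026 and read 231 and 257 in KO clones and 254 and 243 in WT clones. The splicing factors Esrp1 and Esrp2, typical of epithelia, had -0.35 and -0.31.

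**Figure D4:**
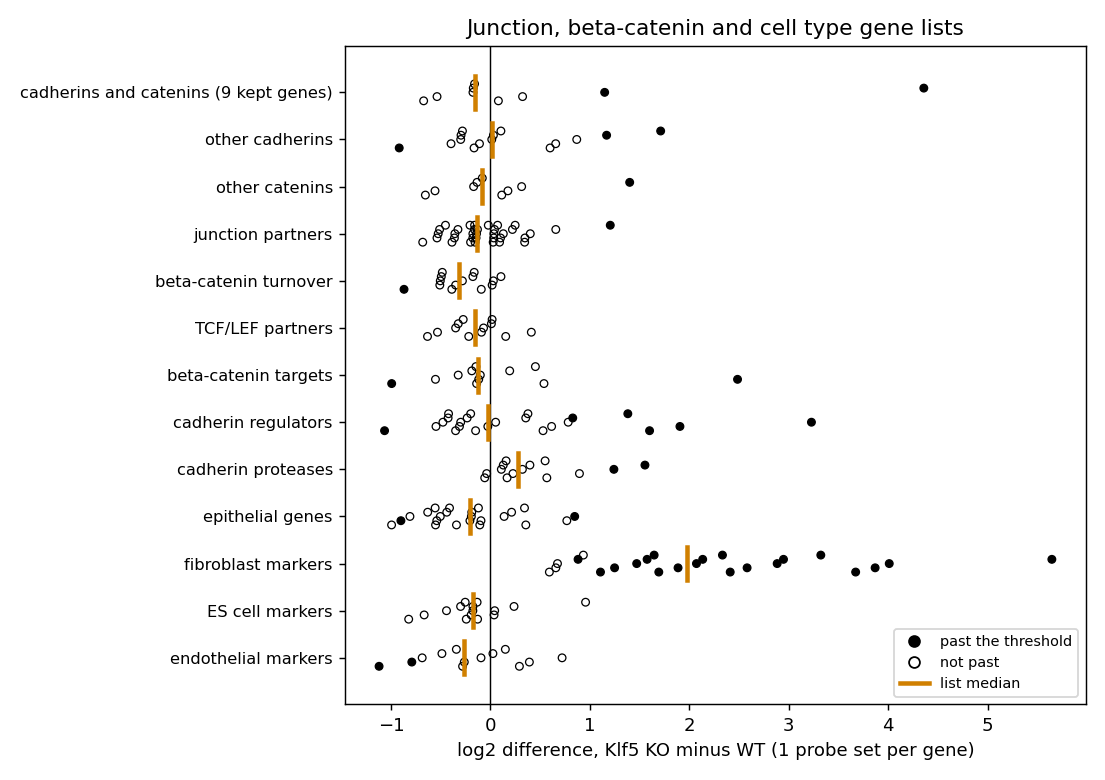
Log2 difference, Klf5 KO minus WT, of each kept gene (1 probe set per gene) in the cadherin and catenin genes and in 12 related lists; filled circles passed the threshold (limma, adjusted p under 0.05), and the orange bar is the list median. The fibroblast markers have a median of 1.98, and the other medians lie between -0.32 and 0.27.

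Of 14 kept proteases that cut cadherins or the stubs they leave, 2 rose, 0 fell and 12 did not pass, with a median of 0.27. Over all kept genes, 2.94% rose and 1.34% fell. Both KO arrays lay above both WT arrays for 8 of the 14, beside 25.9% of all kept genes. They lay below for 0, beside 29.7%. Mmp3 (stromelysin 1), which cleaves E-cadherin, read 57.5 and 45.3 in KO clones and 2.77 and 11.8 in WT clones and rose by 1.55 ± 0.23 (limma, adjusted p = 0.0085); both WT values were under the filter intensity, so it too was kept through its KO values. Mmp2 (gelatinase A) read 160 and 165 in KO clones and 47.4 and 74.2 in WT clones and rose by 1.24 ± 0.21 (adjusted p = 0.017). Mmp3 passed in 2 of 4 leave-outs and Mmp2 in 1. Adam10, the main sheddase of E-cadherin and N-cadherin, had 0.32 ± 0.20.

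Of 23 kept epithelial genes, 1 rose, beside 2.94% of all kept genes, 1 fell, beside 1.34%, and 21 did not pass. The median was -0.21. Both KO arrays lay below both WT arrays for 14 of the 23, beside 29.7% of all kept genes. They lay above for 3, beside 25.9%. The summed intensity was 5002 and 5570 in KO clones and 7022 and 6644 in WT clones. Marveld3, a tight junction protein, rose by 0.85 ± 0.19, at 61.2 and 63.7 in KO clones against 31.4 and 24.1 in WT clones (limma, adjusted p = 0.043). The keratin Krt18 fell by 0.90 ± 0.19, at 597 and 726 in KO clones against 1306 and 1180 in WT clones (adjusted p = 0.038). Both calls were lost with any array left out. Epcam, an adhesion molecule of ES cells and epithelia, had -0.19 ± 0.18.

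Fibroblast genes were higher in the same arrays in which Cdh11 and Cdh2 were higher. Of 24 kept fibroblast or feeder markers, 20 rose, beside 2.94% of all kept genes, 0 fell, beside 1.34%, and 4 did not pass. For all 24, each KO value exceeded each WT value, beside 25.9% of all kept genes. The list was written with earlier results of these data known, so its counts and p-values are a description. For 2 of the 24, Col6a1 and Dcn, both WT values were under the filter intensity. The mean of Mgp in WT clones was also under the filter. Col6a1, Dcn and Mgp were therefore kept through their KO values. The median was 1.98 on the log2 scale. Besides the sums given with Cdh11, 0 of them were at 0 on any array. The smallest intensity in the data was 0.017, so this count could not differ and shows no detection. The calcium-binding protein S100a4 rose by 5.64 ± 0.23 and the matrix protein Tnc by 4.01 ± 0.20 (limma, adjusted p = 3.3e-05 and 5.7e-05). Of the 27 listed, 3 were not kept.

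The genes whose values on the 4 arrays were nearest to those of Cdh11, by Euclidean distance of log2 values over 13022 other genes, were Tm4sf1 at 0.45, Grem1 at 0.84 and Gng11 at 1.11. Tm4sf1, a membrane protein, read 655 and 456 in KO clones and 8.39 and 15.4 in WT clones. The nearest to Cdh1 were Actr3, a subunit of the actin-nucleating Arp2/3 complex, at 0.16, Cdc34 at 0.17 and Sfpq at 0.17. With 4 arrays, such likeness is a description of level and genotype difference only.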

How the data were processed

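RNA of 4 clones was measured on 1 Affymetrix array each, and titles gave the groups. The authors deposited 1 linear intensity per probe set and array; no source used here names the summarisation, background correction or scaling. With limma (version 3.58.1, under R 4.3.3) the arrays were quantile normalized, and log2(intensity + 16) was taken. The 64 control probe sets and those with a mean below the 40th percentile were left out, which kept 27022. KO was compared with WT by lmFit and eBayes (prior degrees of freedom 6.87), adjusting p-values by Benjamini-Hochberg over all kept probe sets, at a threshold of 0.05. An exact permutation test of 2 against 2 arrays cannot go below p = 0.333, so none was run. The fit was also run on simulated data with independent noise and large planted changes, which cannot check differences as small as those of the catenins. Figures were drawn with matplotlib 3.10.9.

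Names came from the platform annotation, which gave a single symbol to 34958 probe sets, several to 932 and none to 9160 that were not controls. The reference gene table held the gene IDs of 34754 and changed 0 symbols. Each gene was read by its brightest probe set on average, avoiding the suffix _x_at where another existed. Members and lists were chosen with earlier results of these data known. Named genes were the members, the 2 largest rises and falls past the threshold in each list (or the ends of a list with none), the 3 genes nearest to Cdh1 and to Cdh11, and Klf5. The alternatives changed the pseudocount (1 or 64), the filter (none or the 60th percentile), the normalization (none or median centring) and the variance prior (a trend). Others took the clone number as a block, left out an array or averaged a gene's probe sets. Protein sequences were not analysed here.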

Additional observations from a re-analysis of the deposited data

Results flagged for a closer look

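The dimmer Cdh11 probe set (1435120_at) was left out of the tests because its mean over the 4 arrays was under the filter, yet both KO arrays, at 25.5 and 36.5, were over the filter intensity and both WT arrays, at 1.17 and 0.97, were far under it. Its log2 difference was 1.45 without a test. No group had enough arrays to look for a single array far from the rest.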

How the results depend on the processing

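As reported, 659 probe sets passed as higher and 337 as lower, among them 2 and 0 of the cadherins and catenins, and 13 and 5 genes of the 9 lists of related genes. With a pseudocount of 1, 160 were higher and 29 lower, with 1 cadherin higher and 4 list genes higher and 0 lower. With a pseudocount of 64, 1145 were higher and 915 lower, with 4 catenin probe sets and 10 list genes lower. Without a filter, 164 were higher and 26 lower, with 1 cadherin higher and 4 list genes higher and 0 lower. With the 60th percentile as the filter, 615 were lower, 2 of them catenin probe sets. Without normalization, 215 were higher and 117 lower, with 1 cadherin higher and 7 list genes higher and 0 lower. With median centring, 1418 were lower, with 3 catenin probe sets and 16 list genes. With a variance trend, 1118 were higher and 837 lower, with 3 catenin probe sets and 10 list genes lower. With a gene's probe sets averaged, 10 list genes were lower. With 1 array left out, so that the lone array was assumed to vary like the other group, 169 to 530 were higher and 34 to 123 lower, with 1 to 3 cadherin probe sets higher, 4 to 13 list genes higher and 0 lower. The clone number as a replicate block gave 891 higher and 499 lower, with 1 catenin probe set lower (1437807_x_at of Ctnna1). Same-numbered clones deviated from their group means with a correlation of 0.055, so the numbers were not taken as pairs. Cdh2 (1418815_at) passed in 6 of 12 alternatives. Among the cadherin and catenin probe sets and the named genes run under the alternatives, no called value changed sign; Foxc2, Prrx2, Snai2, P3h4 and the fibroblast markers other than S100a4 and Tnc were not run as single genes. The causes were not tested. A comparison of protein sequences was not run. The number of arrays, 2 per group, limits the precision, and the Cdh5 probe sets were too dim to be tested.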
